A study of Rattus norvegicus with 4 samples.

Results

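The 10 genes followed here mark astrocytes and were measured in the rat hypothalamus after triiodothyronine (T3), the active thyroid hormone. The genes were Gja1, Gjb6, Aqp4, Gfap, Slc1a2, Slc1a3, Aldh1l1, Fgfr3, Glul and S100b. Members were chosen by name, with earlier results of these data known. Every probe whose accession matched a member was taken, whatever its value. This gave 15 probes for 10 genes, out of 41012 probes and 13440 named genes on the array. On all 4 arrays all 15 probes exceeded background clearly for both treatments, so none was lost to the filter on dim probes.

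Male Sprague Dawley rats, 8 in all and 7 weeks old at the start, drank 0.025% methimazole for 22 days, which blocks thyroid hormone synthesis and made every animal hypothyroid. On day 21, 4 rats were injected with T3 at 25 µg per 100 g and 4 with saline, and tissue blocks spanning bregma -2.12 to -4.52 mm were taken 24 hours later, at a labelled age of 10 weeks. Saline rats were therefore hypothyroid controls, and no untreated euthyroid rats were analysed here. Each of 4 two-colour arrays held 1 T3 rat and 1 saline rat. The T3 rat carried the red dye Cy5 on arrays 1 and 3, and the green dye Cy3 on the other pair. The labels name 8 rats and 4 replicates per treatment, so each array was read as a separate pair of rats. Of 11 genes that mark hypothalamic neurons, 10 were on the array and all 10 were well above background in both channels on all 4 arrays. The median spot read 110 to 138.5 in the green channel (local background 49 to 52), and 238 to 281 in the red one.

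Astrocytes are coupled to each other by gap junctions built of connexins, which let ions and small metabolites pass from cell to cell. They take up glutamate from synapses, convert it to glutamine for neurons, and line blood vessels with endfeet rich in water channels. In the hypothalamus, astrocytes and the related tanycytes also handle thyroid hormone on its way to neurons. Thyroid hormone receptors bind DNA half-sites with the letters AGGTCA, often in pairs.

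The promoter sequences of 3 members are shown because Gja1 and Fgfr3 stood at the lower and upper ends of the T3 ratios and because Gfap alone held the half-site. Each is the 250 bases before the annotated start, 5′ to 3′, from RefSeq on build GRCr8. They lie at chr20:36302314-36302563 on the plus strand for Gja1, chr10:88361662-88361911 on the minus strand for Gfap and chr14:81227210-81227459 on the minus strand for Fgfr3. Capitals mark a match to AGGTCA, to the AP-1 motif TGAGTCA or to TATAAA on either strand; these motifs do not overlap one another here.

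Gja1: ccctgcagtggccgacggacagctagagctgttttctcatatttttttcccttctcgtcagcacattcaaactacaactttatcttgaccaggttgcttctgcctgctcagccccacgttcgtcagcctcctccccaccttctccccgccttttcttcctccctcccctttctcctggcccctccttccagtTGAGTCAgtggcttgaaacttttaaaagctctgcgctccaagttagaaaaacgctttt
Gfap: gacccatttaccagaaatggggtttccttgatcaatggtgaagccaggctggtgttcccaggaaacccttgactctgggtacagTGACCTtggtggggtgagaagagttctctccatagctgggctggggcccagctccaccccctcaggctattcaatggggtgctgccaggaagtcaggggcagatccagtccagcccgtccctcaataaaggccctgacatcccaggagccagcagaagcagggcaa
Fgfr3: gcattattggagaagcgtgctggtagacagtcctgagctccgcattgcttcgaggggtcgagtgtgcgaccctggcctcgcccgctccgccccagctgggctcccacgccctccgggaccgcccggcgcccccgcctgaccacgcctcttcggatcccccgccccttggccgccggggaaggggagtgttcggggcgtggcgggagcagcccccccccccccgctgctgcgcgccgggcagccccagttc

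All 10 genes had at least 1 such window, 16 windows in all. The half-site was found in the Gfap window alone, against 14.1% of 33469 rat promoter windows of the same length, and its 5′ end lay 166 bases before the start. The AP-1 motif was found in the Gja1 window alone, against 4.05% of all windows, 58 bases before the start. TATAAA was found in none of the 16, against 12.9%. The Fgfr3 window was 74.4% G and C, above the median of 51.2%, which was also the Gja1 value. These matches describe letters only, and binding was not measured here.

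A ratio is given below as log2 of T3 over saline on 1 array, after background correction and loess normalization, with means ± SD over the 4 arrays. A probe was called when limma gave a Benjamini-Hochberg adjusted p under 0.05 over all 23190 probes kept. Of those, 23 probes were called, or 0.0992% (0.0949% above 0 and 0.00431% below), and 0 of the 15 astrocyte probes. At an unadjusted p under 0.05, limma gave 4 of the 15, which were the Gja1, Fgfr3 and Slc1a2 probes and 1 Glul probe, against 8.12% of all kept probes. No member was therefore shown to differ between T3 and saline rats at this threshold. The values below describe how far each lay from it. In bulk tissue, fewer astrocytes and less RNA per astrocyte cannot be told apart.

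**Figure D1:**
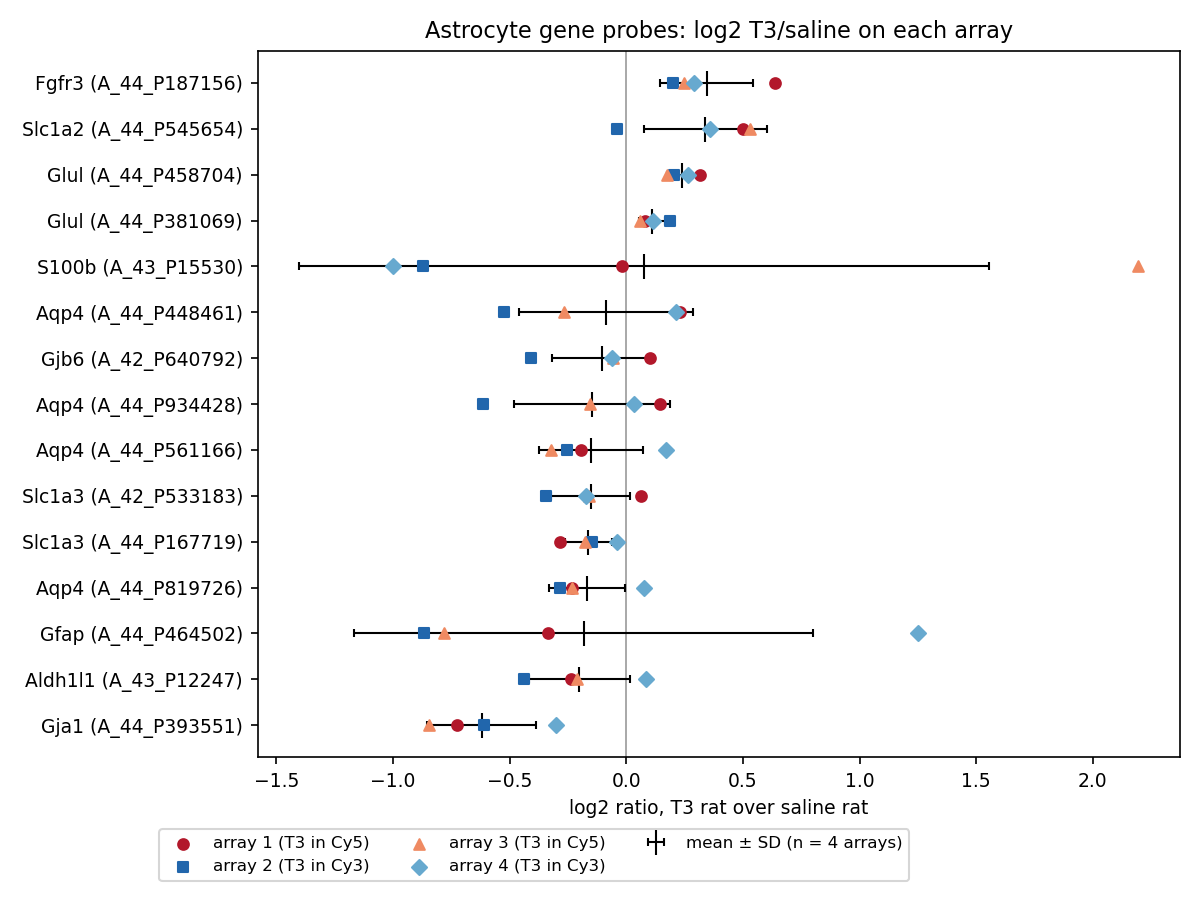
Log2 ratio of T3 over saline (x axis) for the 15 probes of the 10 astrocyte genes (y axis, ordered by mean). Symbols are the 4 arrays, coloured by dye orientation, and bars are the mean ± SD. The Gja1 symbols lie at -0.85 to -0.30, all below 0, those of Fgfr3 and both Glul probes lie above 0, and those of Gfap and S100b spread over more than 2 log2 units.

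Gja1 encodes the main connexin of astrocytes and had the lowest mean ratio of the 10 genes. Its probe was printed 10 times on each array. The ratios were -0.73, -0.61, -0.85 and -0.30 on arrays 1 to 4. T3 rats thus had the lower signal on every array, and the array 4 pair differed least. The mean was -0.62 ± 0.23 (SD, n = 4 arrays), so that the saline level was 1.54 times the level after T3, with a limma adjusted p of 0.0934. Among the 23190 probes this was the 85th smallest p.

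Normalised Gja1 brightness was 14496, 13346, 13637 and 16176 in the T3 rats of arrays 1 to 4. In the saline rats of the same arrays it was 23981, 20363, 24495 and 19904. All 4 T3 rats lay below all 4 saline rats, as was so for 0.614% of kept probes. No other member probe separated the groups in this way, and none did so upward, against 0.981%. The 10 Gja1 spots on an array differed by an SD of 0.04 to 0.08, which measures the printing and reading of spots and not the spread between rats. By dye, the Gja1 mean was -0.79 where T3 was red and -0.45 where T3 was green. Fitting the dye as a term gave a limma adjusted p of 0.0686. The limma adjusted p was 0.062 without a filter on dim probes and 0.21 with Agilent's processed signals. It was 0.83 with eBayes using trend and robust, and 0.12 to 0.43 with 1 array left out. In the authors' deposited table the Gja1 values were -0.84, -1.06, -0.57 and -0.52. The columns of that table followed the scanner ratios of their own arrays only weakly over 23190 probes (r of 0.19 to 0.43), so its values are given beside the others and support none of them.

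**Figure D2:**
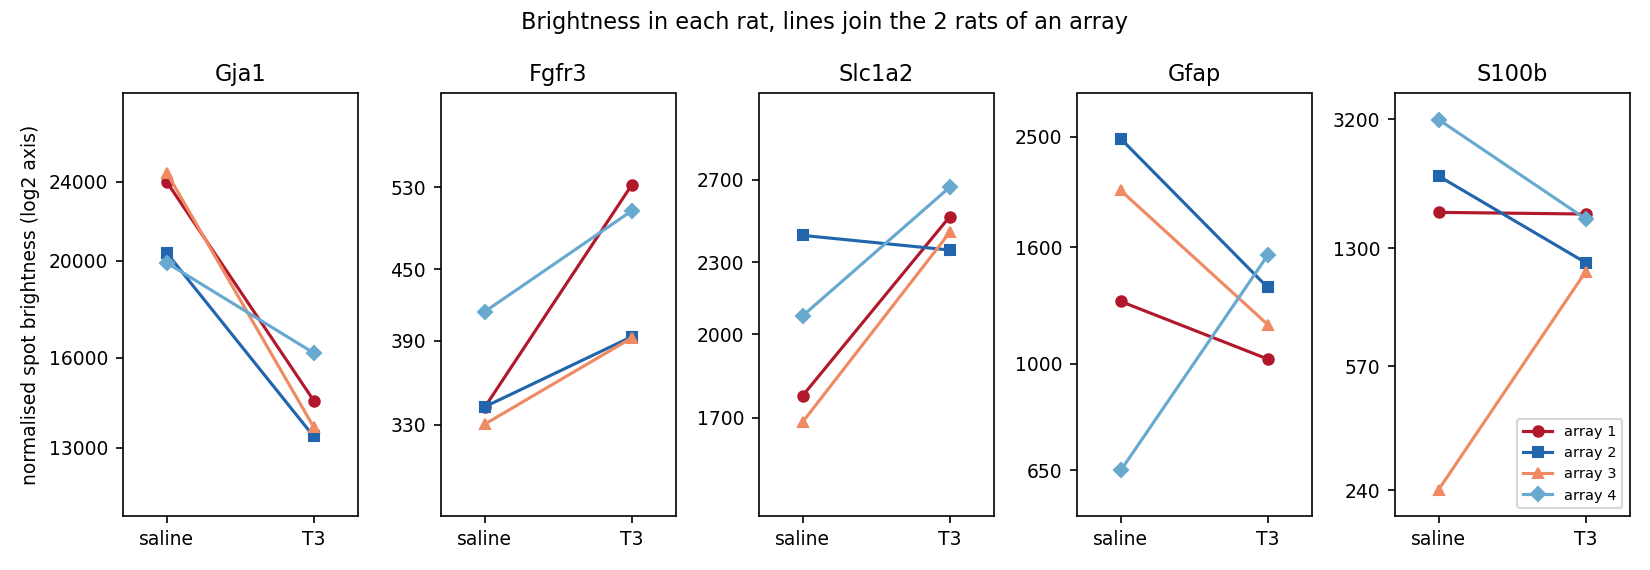
Normalised spot brightness (y axis, log2 scale, a range of its own in each panel) in the saline and T3 rats for 5 astrocyte genes, with a line joining the 2 rats of an array. The Gja1 groups do not overlap, at 13346 to 16176 after T3 and 19904 to 24495 after saline, while 1 saline rat stands low for Gfap on array 4 and for S100b on array 3.

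Gjb6 encodes the other main astrocyte connexin and its ratio was near 0. The values on arrays 1 to 4 were 0.10, -0.41, -0.06 and -0.06, a mean of -0.11 ± 0.21 (limma adjusted p = 0.88). The saline rat of array 2 was the brightest, at 23462, and the other 7 rats lay between 16801 and 18920. Gja1 minus Gjb6 was below 0 on all 4 arrays, at -0.83, -0.20, -0.79 and -0.24, a mean difference of -0.51 ± 0.34. The spread of that difference followed the dye, being larger in size where T3 was red.

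Across the list of connexins, pannexins and partners, 15 of 19 genes were tested and 0 were called, against 0.161% of the 9304 named genes tested by their brightest probe (0.15% above 0 and 0.0107% below). At an unadjusted p under 0.05, limma gave 3 of the 15, Gja1 among them, against 9.26% of all genes. Here and below, a list counts any of the 10 genes that belong to it. A mean below 0 was seen for 10 of the 15, against 48.1% of all genes, and the median was -0.04 against 0.004 for all genes. Gjb1, a connexin of oligodendrocytes, was at 0.23 ± 0.15 with all 4 arrays above 0. Gja4, a connexin of arterial endothelium, was at -0.08 ± 0.04 and Cav1, the caveola protein, at -0.14 ± 0.25.

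Slc1a2 encodes GLT-1, which clears most synaptic glutamate in the forebrain. Its ratios were 0.50, -0.04, 0.53 and 0.36, above 0 on every array but array 2. The mean of 0.34 ± 0.26 had a limma adjusted p of 0.43. Brightness was 2514, 2356, 2438 and 2662 after T3 and 1775, 2424, 1686 and 2073 after saline. The groups overlapped only through the saline rat of array 2, at 2424. By dye, the Slc1a2 mean was 0.52 where T3 was red and 0.16 where T3 was green. The part of the dye in this overlap was not tested. Without replicate 2, which leaves the dye orientations unequal, the mean was 0.46 (limma adjusted p = 0.11).

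Slc1a3 encodes GLAST, the second astrocyte glutamate transporter, and its means lay below 0. One probe gave 0.06, -0.34, -0.16 and -0.17, a mean of -0.15 ± 0.17 (limma adjusted p = 0.74). The other gave -0.28, -0.15, -0.17 and -0.04, a mean of -0.16 ± 0.10 (limma adjusted p = 0.64). Both probes gave the same mean within 0.01, although they ordered the arrays differently.

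Glul encodes glutamine synthetase, which turns the glutamate taken up into glutamine. Both of its probes were above 0 on all 4 arrays. The first gave 0.08, 0.19, 0.06 and 0.11, a mean of 0.11 ± 0.06 (limma adjusted p = 0.77). The second gave 0.32, 0.20, 0.17 and 0.27, a mean of 0.24 ± 0.06 (limma adjusted p = 0.35). These were the smallest SDs of the 15 probes, yet T3 and saline rats overlapped in brightness, at 7206 to 9592 and 6258 to 7973 for the second probe. Within every array the T3 rat was the brighter, so the overlap lay between arrays. There a difference between rats cannot be told apart from one between arrays or dyes.

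In the glutamate-glutamine cycle and potassium uptake list, 18 of 20 genes were tested and 0 were called by limma, with 5 above 0 and 2 below at an unadjusted p under 0.05, against 9.26% of all genes. Ratios were above 0 on all 4 arrays for 5 of the 18 and below 0 on all 4 for 3, against 9.74% and 8.03% of all genes. The list median was 0.09, and 0.05 without replicate 2 or 4 and 0.13 without replicate 1. Atp1b2, the sodium pump subunit of astrocytes, was at 0.90, 0.14, 1.59 and 0.81, a mean of 0.86 ± 0.59. Kcnj16, an inwardly rectifying potassium channel subunit, was at 1.09, 0.11, 0.95 and 0.68, a mean of 0.71 ± 0.43. Both were lowest on array 2, and without replicate 2 Kcnj16 was called (0.91, limma adjusted p = 0.0292). The dye orientations were then unequal, so a dye effect no longer cancelled in that mean. Kcnj16 was at 1.09 and 0.95 where T3 was red, and at 0.11 and 0.68 where T3 was green. Slc38a3, a glutamine transporter of astrocytes, was at 0.38 ± 0.15. Grm3, a glutamate receptor of astrocytes, was at -0.43 ± 0.17 and below 0 on all 4 arrays. Limma adjusted p for these 4 genes lay between 0.16 and 0.24 with all arrays.

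Aqp4 encodes the water channel of astrocyte endfeet and had 4 probes, 3 for 1 reference transcript and 1 for another. The means were -0.15 ± 0.22, -0.17 ± 0.16, -0.15 ± 0.34 and -0.09 ± 0.37, with limma adjusted p between 0.68 and 0.95. The brightest probe gave -0.20, -0.26, -0.32 and 0.17. The probe printed 10 times gave 0.23, -0.53, -0.27 and 0.21, and its spots differed by an SD of only 0.03 to 0.10 within an array. On array 1 the probes thus took both signs, at -0.20, -0.23, 0.15 and 0.23, while on arrays 2 and 3 all 4 were below 0. Without replicate 2, the means of the last pair of probes were 0.01 and 0.06, above 0.

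In the endfoot water channel complex list, 8 of 14 genes were tested and limma called 0. At an unadjusted p under 0.05 limma gave 2, both below 0, against 9.26% of all genes. A mean below 0 was seen for 7 of the 8, against 48.1% of all genes, and the median was -0.14. Dmd, which encodes dystrophin, was at -0.22 ± 0.20, and Agrn, the basement membrane proteoglycan agrin, at -0.18 ± 0.07 with every array below 0. Mlc1, an endfoot membrane protein, was at -0.13 ± 0.22 and Aqp9, a channel for water and glycerol, at -0.21 ± 0.48. By array, the list median was -0.18, -0.20, -0.14 and 0.09.

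Gfap encodes the intermediate filament protein of astrocytes, and its ratios did not share a sign. They were -0.34, -0.87, -0.78 and 1.25, a mean of -0.18 ± 0.98 (limma adjusted p = 0.96). Brightness was 1019, 1360.2, 1171 and 1549 after T3 and 1286, 2479.7, 2012 and 650.0 after saline. The T3 rats lay within the range of the saline rats, and the low saline rat of array 4 gave the ratio above 0. Its 10 spots on an array differed by an SD of 0.04 to 0.10. Without replicate 4 the mean was -0.66 (limma adjusted p = 0.34). It was 0.05 without replicate 2 and 0.02 without replicate 3. The authors' deposited table had -0.59, 0.62, 0.17 and -0.18 for Gfap, a different order of arrays.

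Of the intermediate filament and reactive astrocyte list, 14 of 20 genes were tested and limma called 0. A mean below 0 was seen for 10 of the 14, against 48.1% of all genes, and the median was -0.10. At an unadjusted p under 0.05 limma gave 2 above 0 and 3 below, against 9.26% of all genes. Nes, which encodes nestin, was at 0.37 ± 0.32 and Il6st, the shared receptor of the interleukin 6 family, at 0.22 ± 0.10. Both were above 0 on all 4 arrays. Cxcl10, an interferon-induced chemokine, was at -0.53 ± 0.43, and Cntf, a glial neurotrophic factor, at -0.32 ± 0.29. Both were below 0 on all 4.

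Fgfr3 encodes a fibroblast growth factor receptor of astrocytes and had the highest mean ratio of the 10 genes. The ratios were 0.64, 0.20, 0.25 and 0.29, above 0 on every array and highest on array 1. The mean was 0.34 ± 0.20, or 1.27-fold, with a limma adjusted p of 0.31. Brightness was 532, 393, 392 and 505 after T3 and 342, 342, 330.4 and 413 after saline. The groups overlapped only through the saline rat of array 4. In the authors' deposited table the values were 0.11, 0.39, -0.53 and 0.38, with array 3 below 0.

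Genes of fibroblast growth factor signalling were measured beside it. Of 20 listed genes, 14 were tested and limma called 0. A mean above 0 was seen for 12 of the 14, against 4828 of all 9304 genes. The median was 0.07, against 0.004 for all genes. At an unadjusted p under 0.05 limma gave 3, Fgfr3 among them, all above 0, against 9.26% of all genes. Spry4 and Spry2, feedback inhibitors induced by the pathway, were at 0.20 ± 0.11 and 0.14 ± 0.08, both above 0 on all 4 arrays. The ligand gene Fgf1 was at 0.20 ± 0.16 and Etv1, a transcription factor downstream of the receptors, at 0.19 ± 0.27. For these 4 genes the adjusted p in limma ranged from 0.55 to 0.74.

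Aldh1l1 encodes a folate enzyme used to mark astrocytes across the brain. Its ratios were -0.24, -0.44, -0.21 and 0.09, below 0 on arrays 1 to 3, and the mean was -0.20 ± 0.22 (limma adjusted p = 0.66). In the folate and one-carbon list, 14 of 19 genes were tested and limma called 0. A mean below 0 was seen for 9 of the 14, against 48.1% of all genes, and the median was -0.05. The only genes at an unadjusted p under 0.05 in limma were Phgdh and Psat1, against 9.26% of all genes. Phgdh and Psat1, the first enzymes of serine synthesis, were at -0.39 ± 0.25 and -0.26 ± 0.21, both below 0 on all 4 arrays. Slc19a1, the reduced folate carrier, was at 0.18 ± 0.15 and the mitochondrial serine hydroxymethyltransferase Shmt2 at 0.12 ± 0.09.

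S100b encodes a calcium-binding protein of astrocytes and some oligodendrocytes, and it varied most between arrays. The ratios were -0.02, -0.87, 2.19 and -0.999, a mean of 0.08 ± 1.48 (limma adjusted p = 0.99). Brightness was 1650.0, 1176, 1104 and 1595 after T3 and 1669, 2150.2, 241 and 3188 after saline. The saline rat of array 3 was the lowest of all 8, and the 4 T3 rats fell within the saline range. Spots of S100b on 1 array differed by an SD of 0.03 to 0.12. Without replicate 3 the mean was -0.63 (limma adjusted p = 0.69). Of 7 choroid plexus and red blood cell markers, Ttr and Sostdc1 were at 3.53 and 2.70 on array 3, and the other 5 lay between -0.29 and 0.42. Their part in the S100b ratio was not tested. For S100b the authors' deposited table gave -0.72, -1.08, 0.36 and 1.86. Of the S100 family list, 7 of 11 genes were tested and limma called 0. A mean below 0 was seen for 6 of the 7, against 48.1% of all genes, and the median was -0.08. S100a16 was the only one at an unadjusted p under 0.05 in limma, against 9.26% of all genes. It was at -0.38 ± 0.09 and below 0 on all 4 arrays. S100a6, S100a1 and S100a10 were at -0.10 ± 0.27, -0.08 ± 0.25 and -0.06 ± 0.21.

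Ordered by the mean of the brightest probe, the genes ran Gja1, Aldh1l1, Gfap, Slc1a3, Aqp4, Gjb6, S100b, Glul, Slc1a2 and Fgfr3. From Aldh1l1 to Gjb6, neighbours differed by 0.002 to 0.045, far less than their SDs over arrays. Slc1a2 and Fgfr3 differed by 0.006. The gap of 0.42 between Gja1 and Aldh1l1 was larger than the SD of either. Gja1 minus Aldh1l1 was -0.49, -0.17, -0.63 and -0.38 on the 4 arrays. Gja1 lay below 7 of the other 9 genes on all 4 arrays, below Gfap on 3 and below S100b on 2. The difference between Gja1 and Fgfr3, the ends of the order, was -0.96 ± 0.34. The ends were chosen by their values, so these differences are a description.

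Probes with a ratio below 0 numbered 7, 12, 10 and 5 of 15 on arrays 1 to 4. The probe medians were 0.06, -0.34, -0.16 and 0.09, while the medians of all kept probes lay between -0.02 and 0.01. The members thus lay lower on array 2 than elsewhere, and no array put all of them on 1 side. Ratios kept 1 sign on all 4 arrays for 5 of 15 probes. Below 0 were Gja1 and 1 Slc1a3 probe, against 8.07% of kept probes, and above 0 were Fgfr3 and both Glul probes, against 8.11%.

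Beyond the 10 genes, 26 of 30 further astrocyte markers were tested and limma called 0, with 4 above 0 and 6 below at an unadjusted p under 0.05, against 9.26% of all genes. A mean below 0 was seen for 15, against 48.1% of all genes, and above 0 for 11, with a median of -0.08. Ratios were below 0 on all 4 arrays for 7 of them and above 0 for 3, against 8.03% and 9.74% of all genes. Fabp7, a fatty acid-binding protein of astrocytes and radial glia, was at -0.40, -0.73, -0.42 and -0.43, a mean of -0.49 ± 0.16 (limma adjusted p = 0.10). Aldoc, the aldolase of astrocytes, was at -0.26 ± 0.03 and Ttyh1, a glial membrane protein, at -0.33 ± 0.20. The sodium pump gene Atp1b2, described above, was the highest of this list. Further astrocyte markers thus took both signs, as the 10 genes did.

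**Figure D3:**
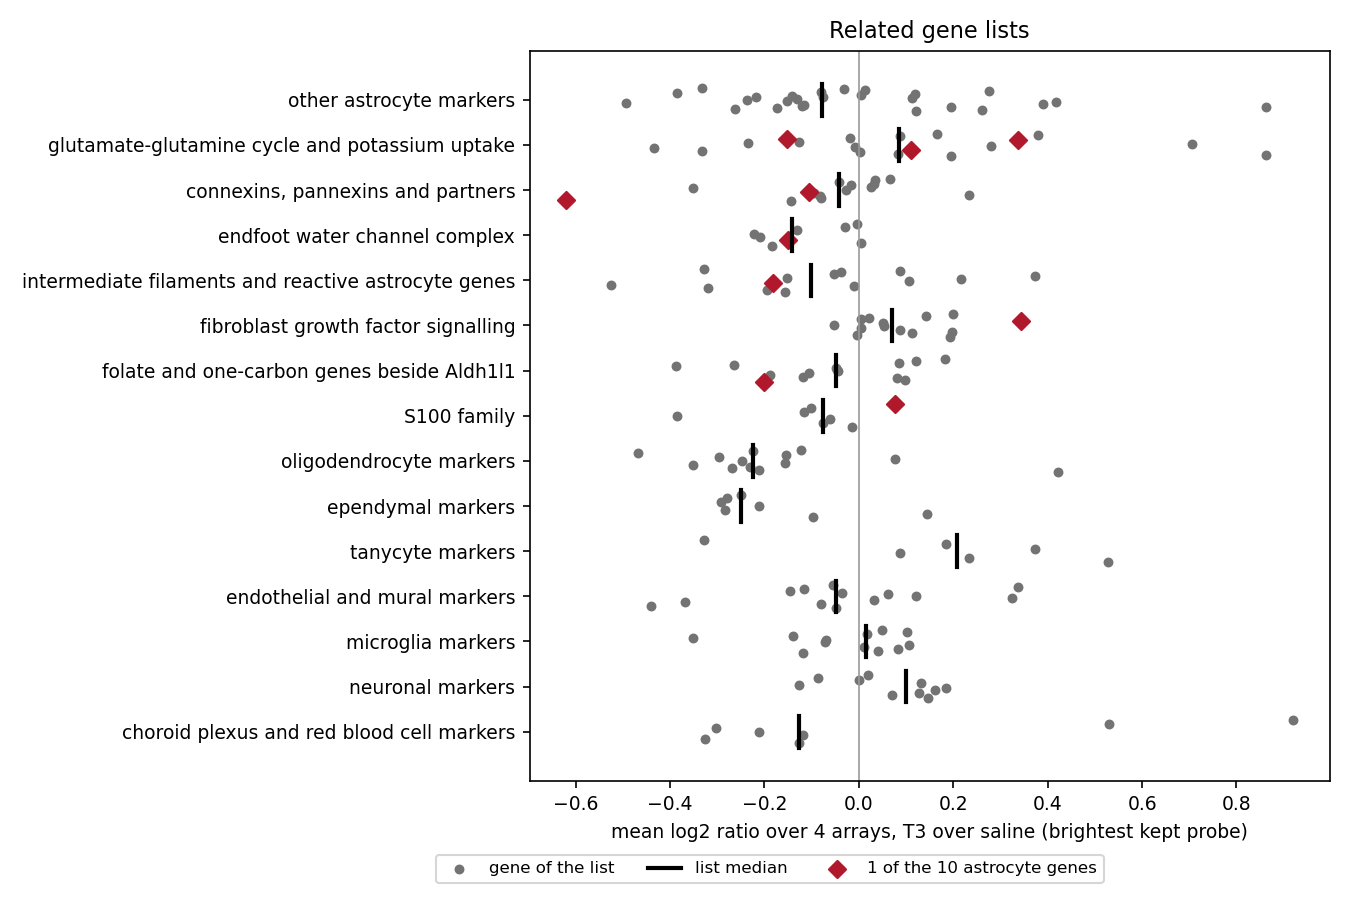
Mean log2 ratio of T3 over saline (x axis, brightest kept probe) for each gene of 15 related lists (y axis). Red diamonds are the 10 astrocyte genes where a list holds them, grey points other genes and black bars list medians. List medians lie between -0.25 for ependymal and 0.21 for tanycyte markers, and Gja1 is the lowest of the connexins at -0.62.

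Markers of other cell types were read beside the astrocyte genes. Of all genes, 48.1% had a mean below 0 and 9.26% an unadjusted p under 0.05 in limma. Oligodendrocyte markers had a median of -0.22 (13 tested, 11 below 0), with array medians of -0.23, -0.38, -0.29 and 0.12. At an unadjusted p under 0.05, limma gave 6 of them below 0 and 1 above. Opalin, a myelin protein, was at -0.47 ± 0.31 and Aspa, which breaks down N-acetylaspartate, at 0.42 ± 0.28. Ependymal markers had a median of -0.25 (7 tested, 6 below 0), with the cilium genes Rsph1 and Tekt1 at -0.28 ± 0.10 and -0.29 ± 0.15. At an unadjusted p under 0.05, limma gave 5 of the 7, all below 0. Ratios were below 0 on all 4 arrays for 4 of the 7, against 8.03% of all genes. Tanycyte markers had a median of 0.21 (6 of 11 listed tested, 1 below 0), with the peptide gene Adm at 0.53 ± 0.37 and Nes as above. The gene below 0 was Vim, which encodes vimentin and is also on the intermediate filament list, at -0.33 ± 0.35. At an unadjusted p under 0.05, limma gave 3 tanycyte markers above 0 and 1 below. Without a filter on dim probes the tanycyte median was 0.11. Like the median astrocyte probe, the oligodendrocyte list was lowest on array 2 and highest on array 4. Its part in the astrocyte ratios was not tested.

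Endothelial and mural markers had a median of -0.05 (13 tested, 8 below 0), with the tight junction gene Cldn5 at -0.37 ± 0.07 and the receptor kinase gene Tie1 at 0.34 ± 0.15. Microglia markers had a median of 0.01 (12 tested, 5 below 0), with P2ry12 and Itgam at -0.14 ± 0.21 and -0.35 ± 0.76. Neuronal markers had a median of 0.10 (10 tested, 2 below 0), with Elavl4 at 0.15 ± 0.16 and the glutamate transporter gene Slc17a6 at -0.13 ± 0.13. Choroid plexus and red blood cell markers had a median of -0.13 (7 tested, 5 below 0). Their array medians were 0.45, -0.49, 0.34 and 0.06, with Calml4 at -0.33 ± 0.24 and Ttr at 0.92 ± 1.77. The red blood cell genes Hbb-b1, Hbb and Alas2 were at -4.25, -3.25 and -3.20 on array 2, and above 0 on arrays 1, 3 and 4. The part of blood in the other ratios of array 2 was not tested. Single arrays turned some of the list medians. Without replicate 2 the choroid plexus and red blood cell median was 0.83 and the endothelial and mural median 0.003. In the authors' deposited table the choroid plexus and red blood cell median was 0.44. The microglia median was -0.02 without replicate 1 and -0.07 without replicate 4, and the neuronal median was 0.02 without replicate 1. At an unadjusted p under 0.05, limma gave 2 endothelial and mural genes above 0 and 1 below. For microglia and neuronal markers it gave 0, and for choroid plexus and red blood cell markers 1, below 0. Over all 15 lists, 166 genes beside the 10 were tested and limma called 0. At an unadjusted p under 0.05 there were 46 of the 166, against 9.26% of the 9304 genes. The lists were chosen with earlier results of these data known, so this count is a description.

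The genes whose ratios lay closest to those of Gja1 over the 4 arrays were Firrm, Dbi, A2m, Cd38 and C19h1orf198. Their root mean square differences from Gja1 were 0.089 to 0.181 log2 units over 4 arrays. Dbi, which encodes a protein that binds acyl-CoA, was at -0.79, -0.40, -0.89 and -0.41. C19h1orf198 was at -0.45, -0.69, -0.67 and -0.43. None of the 5 passed in limma, with adjusted p of 0.0693 to 0.20. They were ranked by likeness, so their values are a description.

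**Figure D4:**
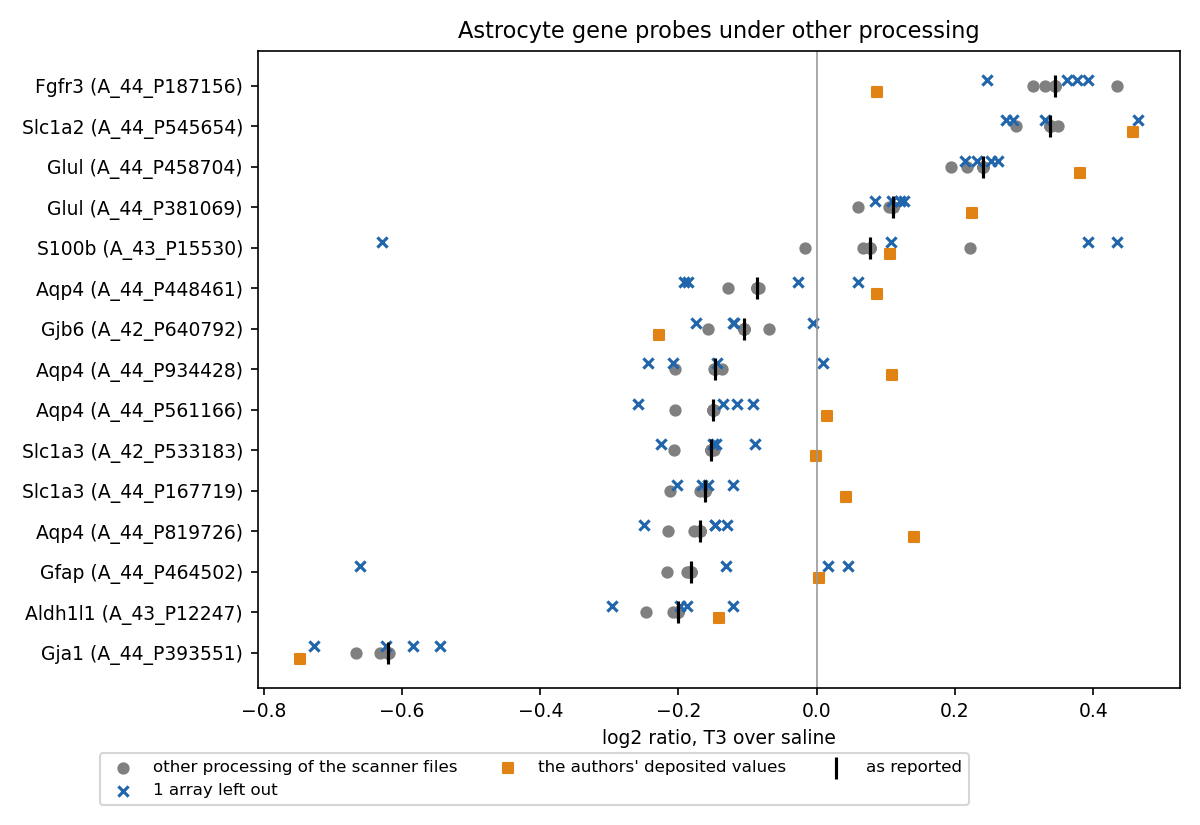
Mean log2 ratio of T3 over saline (x axis) of each astrocyte probe (y axis) as reported, with 1 array left out, under other processing of the scanner files, and in the authors' deposited values. Gja1 lies between -0.75 (the deposited values) and -0.54, while S100b spans -0.63 to 0.43 and the Aqp4 probes lie above 0 in the deposited values.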

How the data were processed

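Total RNA was measured on 4 two-colour Agilent arrays. Per the file headers, Feature Extraction 10.7.3.1 gave spot and background intensity as median pixel brightness without normalization, and a processed intensity with background and dye already corrected. The submitters' processing notes name limma 3.18.9. The authors' deposited value table was taken as log2. Its base, centring and normalization are not given in the sources used here, and its columns correlated with the scanner ratios of their own arrays at only 0.43, 0.43, 0.19 and 0.28. Its columns for arrays 3 and 4 correlated at -0.51 with each other, and it served only as an alternative. It was read as T3 over saline because each column correlated above 0 with the T3 over saline ratio of its array. Its column medians were 0.0026, -0.0024, 0.0021 and 0.0030.

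Median signals were corrected with normexp (offset 50) and put through within-array loess, giving controls weight 0, in limma 3.58.1 under R 4.3.3. Controls and outlier spots were dropped before averaging over each probe, and the sign of every ratio was set to T3 over saline. Probes were kept if well above background on at least 3 of 4 arrays in either treatment and with a value on at least 2. This left 23190 of 41012. The ratios then correlated at 0.38 between arrays 1 and 3 and 0.18 between arrays 2 and 4, which shared a dye orientation. Between arrays of opposite orientation they correlated at -0.11 (arrays 1 and 2) and 0.05 (arrays 3 and 4). Normalised brightness per rat was taken after Aquantile scaling between arrays, and can hold the dye bias of a probe. Accessions were matched without versions to RefSeq names of assembly GRCr8, which named 16964 probes and left 24048 unnamed. A gene of a list was represented by its brightest kept probe. Tests were limma's lmFit and eBayes, 2-sided, with 3 residual and 4.35 prior degrees of freedom, checked on simulated arrays. The number of arrays limits the precision. The p-values rest on the spread between these 4 pairs, moderated in limma by the spread of all kept probes. The fit reported held no dye term, so a dye effect on a probe adds to that spread.

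Named were all 10 members, up to 4 genes of each related list and 2 of each marker list of another cell type by smallest p, and the 5 genes nearest to Gja1. One gene that this rule names is not reported here. Sostdc1, Hbb-b1, Hbb, Alas2 and Vim were named after their values were seen. Members and lists were chosen with earlier results of these data known, and the hypothalamic neuron markers were listed after the data had been examined. All arrays shared 1 slide and scan, so no batch could be tested.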

Additional observations from a re-analysis of the deposited data

Results flagged for a closer look

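For 7 of 80 genes, probes and list medians examined, 1 of the 4 arrays stood apart, its gap to the nearest array, as a share of the range, exceeding Dixon's critical value. About 1 in 20 would do so by chance. One was an Aqp4 probe, at 0.08 on array 4 against -0.28 to -0.23 (0.853). Array 4 also stood apart for Agrn (-0.29 against -0.16 to -0.14, 0.870) and Gja4 (-0.02 against -0.10, 0.961). Array 2 did so for Fabp7 (-0.73 against -0.43 to -0.40, 0.894) and Shmt2 (-0.02 against 0.16 to 0.19, 0.869). Array 3 did so for Fgf1 (0.44 against 0.10 to 0.13, 0.897) and Il6st (0.37 against 0.16 to 0.18, 0.885). Gfap on array 4 and S100b on array 3 did not reach this mark.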

How the results depend on the processing

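Of the astrocyte probes, 0 of 15 were called by limma in the fit reported and in all 12 alternatives (4 at an unadjusted p under 0.05 as reported, 0 to 8 in the alternatives). Gja1 stayed below 0 in all 12, at -0.75 to -0.54. Its limma adjusted p ran from 0.062 without a filter on dim probes to 1.00 with median centring. The value of -0.75 is that of the authors' deposited table. The other alternatives reuse the same arrays, so the kept sign is a description. The count over all kept probes was 23. It was 0 with Agilent's processed signals (1948 at an unadjusted p under 0.05), 0 with median centring (131) and 0 with eBayes using trend and robust (1160). It was 67 without a filter on dim probes, 15 with a dye term and 10 with the authors' deposited values. Leaving out 1 replicate gave 0 to 68, with 68 without replicate 2 and 0 without replicates 1, 3 or 4 (1403, 1383 and 1577 at an unadjusted p under 0.05), and 0 to 1 for the related lists, where Kcnj16 was called without replicate 2. With the authors' deposited values, the sign turned for the 4 Aqp4 probes (0.014, 0.14, 0.11 and 0.087), Gfap (0.0035) and 1 Slc1a3 probe (0.042). S100b turned with median centring (-0.016) and without replicate 3 (-0.63). Without 1 replicate, Gfap ranged from -0.66 to 0.046 (0.017 without replicate 3) and S100b from -0.63 to 0.43. A pair of Aqp4 probes ranged from -0.24 to 0.0086 and from -0.19 to 0.059, turning without replicate 2. Any fit without 1 replicate holds unequal dye orientations, so a dye effect does not cancel in its mean. The cause of these turns in sign was not tested. The fit reported is itself paired, since each ratio sets the T3 rat of an array against its saline rat, so no further block was fitted. Arrays limit what could be seen, as 4 pairs left an SD of 0.98 for Gfap and 1.48 for S100b.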
